A study of Mus musculus with 25 samples.

Results

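Cluster 7 of the authors' deposited cell annotation held 67 of the 30958 cells (0.216%) that were sorted as myeloid cells from the injured or control mouse spinal cord. Its members were taken by the deposited cluster number alone and joined by barcode to the raw counts of unique molecular identifiers (UMIs), the tags that mark each captured RNA molecule. All 67 cells carried cell type code 1. The 13289 cells of that code had a median of 108.6 UMIs of 9 microglia markers per 10000 UMIs, against 3.67 to 3.83 in the other 3 codes. Cluster 6, with 1515 cells of code 1, and cluster 10, with 182 cells of code 2, also express genes of cell division and serve as the comparison.

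All mice carried Cx3cr1CreERT2, a drug-inducible Cre driven from the fractalkine receptor gene, either alone or with R26tdTomato, a red reporter that Cre switches on. In reporter mice, cells with red and yellow fluorescence were sorted as resident (5 libraries) and cells with yellow alone as infiltrating (7 libraries). In mice without the reporter, all yellow cells were sorted together (mixed, 12 libraries). A further library, D3_conflict 1, has a title and a sort label that contradict each other. The 25 libraries come from laminectomy-only controls (Ctrl, 2 libraries) and from days 1, 2, 3, 10 and 21 after injury (D1, 5; D2, 4; D3, 7; D10, 5; D21, 2), and each pools 1 to 3 mice, whose age is not given in the sources used here. Libraries are named by time, sort and replicate, and held 155 to 3800 cells with library medians of 1577 to 11233 UMIs per cell. Cells of a library share their source and are not replicates, so nothing below tests cluster 7 against other cells: the genes that differ helped to form the cluster.

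A dividing cell copies its DNA in S phase with the replication fork proteins and packs it with newly made histones. In G2 and mitosis it switches to a second programme, in which cyclin B with Cdk1 drives entry, kinetochores attach chromosomes to the spindle, the checkpoint holds back the anaphase-promoting complex, and kinesins and midbody proteins complete division. Microglia, the resident macrophages of brain and spinal cord, divide rarely in the healthy tissue and more often after injury.

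Most of the cluster came from 1 library. D2_resident 1 gave 54 of the 67 cells (80.6%), which were 3.16% of its 1711 cells (exact binomial 95% interval 2.38 to 4.10%). D3_infiltrating 1 gave 6 of 2917 (0.206%), D2_mixed 2 gave 3 of 754 (0.398%), D10_mixed 1 gave 2 of 1213 (0.165%), and D2_mixed 1 (of 600) and D3_resident 1 (of 159) gave 1 each. In the other 19 libraries the count was 0. That allows a share of all their cells of up to 0.07895 to 1.94%, depending on the number of cells. Of these libraries, 14 held cluster 6 cells. The lowest limit was in D3_conflict 1, where only 8 of the 3800 cells were of code 1. D2_resident 1 itself supplied 5.53% of all cells and 30.4% of cluster 6, so cluster 7 was more concentrated in it than either. Among cells of code 1 alone, cluster 7 was 54 of 1500 in D2_resident 1. It was a larger part, on few cells, in D3_infiltrating 1 (6 of 19) and D2_mixed 2 (3 of 23). In D2_mixed 1 (1 of 524), D3_resident 1 (1 of 108) and D10_mixed 1 (2 of 1151) it was a smaller part. D2_resident 1 is the only resident library at D2 analysed here, from male mice, so time point, sort, sex and library cannot be told apart; the intervals cover counting error only.

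**Figure D1:**
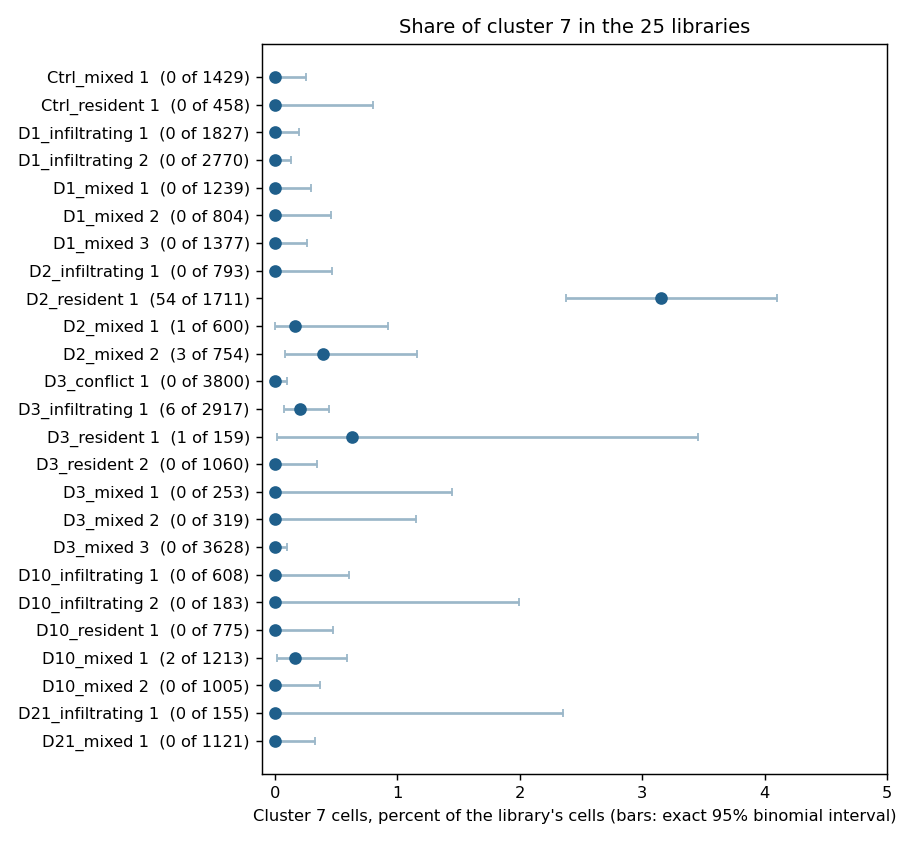
Percent of each library's cells that lie in cluster 7, with exact 95% binomial intervals and the counts beside the library names. D2_resident 1 stands at 3.16%, and 19 of the 25 libraries are at 0.

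Cluster 7 was made of deep cells. Its cells had a median of 13526 UMIs (5394 to 25350) and 3776 genes, against 2581 UMIs (841 to 35213) and 1127 genes in cluster 6 and 14006 UMIs in cluster 10. Within D2_resident 1 the medians were 12220 UMIs in cluster 7 and 3710 in cluster 6, a ratio of 3.29, and the ranges overlapped: 123 of the 461 cluster 6 cells there had at least as many UMIs as the shallowest cluster 7 cell. Among the cells of clusters 6 and 7 above that depth, a limit chosen after the values were seen, cluster 7 made up 54 of 177 in D2_resident 1 (30.5%), 1 of 51 in D2_mixed 1 (1.96%) and 0 of 24 in D3_mixed 3. In the other 4 libraries with cluster 7 cells it made up 6 of 6 in D3_infiltrating 1, 3 of 4 in D2_mixed 2, 2 of 9 in D10_mixed 1 and 1 of 8 in D3_resident 1. The share of cluster 7 among deep cells thus ran from 0 to all of them, on few cells outside D2_resident 1. The median mitochondrial share was 0.489% in cluster 7 and 0.769% in cluster 6.

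**Figure D2:**
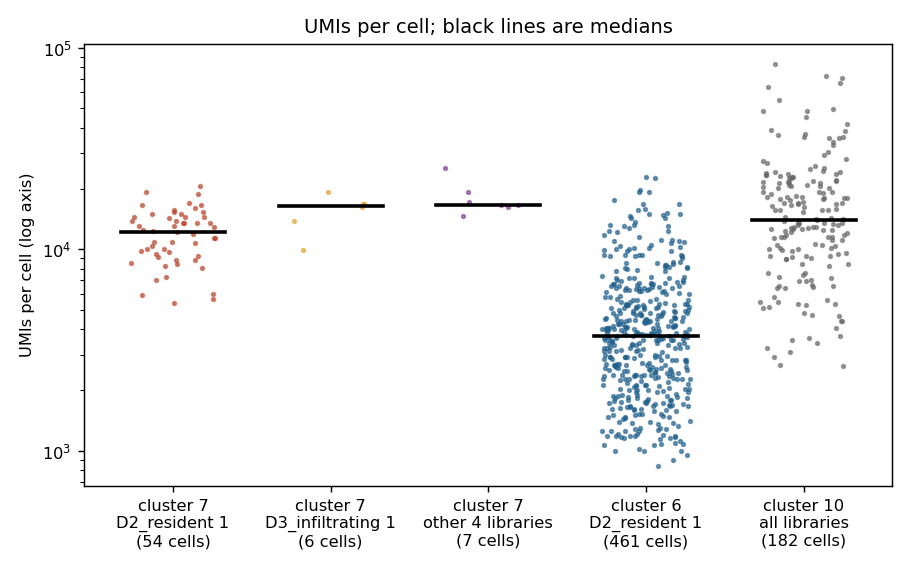
UMIs per cell on a log axis for cluster 7 in D2_resident 1, in D3_infiltrating 1 and in the other 4 libraries, for cluster 6 of D2_resident 1 and for cluster 10, with black lines at the medians. The 54 cells of D2_resident 1 lie between 5394 and 20531 UMIs, inside the range of cluster 6 there, which reaches 22740.

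A 16-base barcode shared with another library occurred in 254 of all cells and in 1 cluster 7 cell, from D2_mixed 2 (16538 UMIs), whose partner in D3_conflict 1 lay in cluster 16 (1902 UMIs). No doublet caller was run, and the part of doublets in these high UMI counts was not tested. The 9 macrophage markers gave 1038 UMIs in the 67 cells, 615 of them in the 54 cells of D2_resident 1, and the 8 monocyte markers 92, of which 87 were in D3_infiltrating 1. Summed over the 54 cells of D2_resident 1, the 9 granule progenitor markers and the 7 T and NK cell markers were all at 0 UMIs, and the 8 monocyte markers gave 4 UMIs. Over all 67 cells, the 4 ependymal markers and the 5 pericyte and fibroblast markers were at 0, and the 7 neutrophil markers gave 59 UMIs, of which Csf3r, the granulocyte colony-stimulating factor receptor, gave 55. Csf3r was at 63.4 CPM (UMIs of a gene scaled to the same total in every group) in cluster 7 and at 126 CPM in cluster 4 of D2_resident 1, another cluster of code 1. The remaining lists gave 15 UMIs for dendritic cells, 20 each for border macrophages and B cells, 96 for oligodendrocytes and 38 for their precursors. They gave 51 for astrocytes, 25 for neurons, 15 for endothelium and 12 for erythroid cells, of 867135 UMIs in all. D3_infiltrating 1, with 6 cells, gave 10 of the dendritic cell and 16 of the border macrophage UMIs.

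The 5 mitosis markers were present in all 6 libraries. CPM is not corrected for transcript length, so levels are compared within a gene, and the intervals given with them are exact 95% Poisson intervals. Mki67, the proliferation antigen that coats mitotic chromosomes (GRCm38 chr7:135689784-135716361), stood at 800.3 CPM (742 to 862). It was 679.5 CPM in D2_resident 1, 972 in D3_infiltrating 1, 1004 in D2_mixed 2, 1659 in D10_mixed 1, 1565 in D2_mixed 1 and 894.5 in D3_resident 1. Every one of the 67 cells held Mki67, and D2_resident 1 was the lowest of the 6 libraries. Cluster 6 of the same libraries was lower in each, at 157.5 to 346.8 CPM.

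Top2a, the topoisomerase that untangles sister chromatids (chr11:98992943-99024189), stood at 1068 CPM (1000 to 1139). By library it ran from 658.8 CPM in D3_infiltrating 1, where 1 of 6 cells held none, to 1146 in D2_resident 1. In D3_infiltrating 1 the 5 cluster 6 cells were higher than cluster 7, at 1059 CPM, and in the other 5 libraries cluster 6 was lower. Cenpf, a kinetochore protein of late G2 (chr1:189640606-189688086), stood at 469.4 CPM, with 200.9 in D2_mixed 2 as the lowest and 962.8 in D2_mixed 1 as the highest. Only 41 of the 54 cells of D2_resident 1 held a Cenpf UMI, although these cells were deep. Hmmr, a spindle-assembly protein (chr11:40701395-40733422), stood at 288.3 CPM, with 221.9 in D2_resident 1, 637.2 in D3_infiltrating 1 and 160.7 in D2_mixed 2 as the lowest. Knl1, the kinetochore scaffold that recruits the checkpoint (chr2:119047119-119105501), stood at 254.9 CPM, from 179.4 in D10_mixed 1 to 412.8 in D3_resident 1.

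At equal depth, with every cell thinned to 3000 UMIs, these markers were still found in more cluster 7 than cluster 6 cells, pooled over libraries. Thinning kept all 67 cells of cluster 7, 622 of cluster 6 (893 shallower cells were left out) and 179 of cluster 10 (3 left out). Mki67 was found in 86.6% of cluster 7 cells (exact 95% interval 76.0 to 93.7%), 37.6% of cluster 6 cells (33.8 to 41.6%) and 50.3% of cluster 10 cells (42.7 to 57.8%). Without thinning, and over all 67, 1515 and 182 cells with the shallower ones included, the shares were 100%, 32.3% and 82.4%. Top2a was found in 88.1%, 63.2% and 56.4% of the thinned cells. For Cenpf the shares were 64.2%, 46.8% and 44.1%, and the intervals of clusters 7 and 10 just overlapped (51.5 to 75.5% and 36.7 to 51.7%). Hmmr was in 41.8% of cluster 7, 21.2% of cluster 6 and 34.1% of cluster 10 cells, with overlapping intervals for clusters 7 and 10. Knl1 was in 47.8%, 23.0% and 37.4%, again with overlap between clusters 7 and 10. Within D2_resident 1 (54 and 275 cells), Mki67 was in 83.3% of cluster 7 and 38.5% of cluster 6 cells, Top2a in 92.6% and 53.8%, and Knl1 in 44.4% and 20.7%. There the intervals overlapped for Cenpf (61.1% and 46.5%) and Hmmr (33.3% and 22.9%), and at 1500 UMIs Hmmr was in 12.96% and 12.83%. The intervals cover counting error over cells that share libraries, so whether they overlap is no test between clusters. As a measure of stray signal, cluster 4 of D2_resident 1 (216 cells of at least 3000 UMIs, chosen after the values were seen) gave 1.85% for Mki67, 1.39% for Top2a and 0 of 216 for Hmmr, which allows up to 1.39%; its median depth was 7314 UMIs against 13526 in cluster 7. Thinned to 3000 UMIs, cluster 7 cells also spread over more genes, a median of 1540 against 1305 in cluster 6 and 1292 in cluster 10.

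Many promoters of late cell cycle genes are known to hold a cell cycle genes homology region (CHR), searched here as TTTGAA on both strands. Many also hold the binding element of the factor NF-Y, searched as CCAAT on both strands. The search covered the 300 bases from 250 before to 50 after the start in the RefSeq promoter table for GRCm38.p6. TTTGAA occurred in 17.9% of all 32851 promoters and CCAAT in 37.4%. Among the 5 markers, all 5 promoters held TTTGAA and 4 of 5 held CCAAT. Knl1 lacked CCAAT, and its CHR lay 32 bases into the transcript. The stretches below show where the elements lie in genes that were higher in cluster 7 than in cluster 6 (Top2a, Mki67, Cenpf, Hmmr, Kif15) and in Cdc20, which stood at 151.1 and 149.3 CPM in the 2 clusters; capitals mark both elements. A CHR on the other strand reads TTCAAA. Independently of it, an NF-Y element on the other strand reads ATTGG. Top2a is shown from 100 bases before its start (chr11:99024190-99024289, minus strand), Mki67 from 190 (chr7:135716470-135716569, minus), Cenpf from 80 before to 15 after (chr1:189688072-189688166, minus), Hmmr from 60 before to 15 after (chr11:40733423-40733497, minus), Kif15 from 60 before (chr9:122951021-122951075, plus) and Cdc20 from 60 before (chr4:118437344-118437403, minus).
Top2a: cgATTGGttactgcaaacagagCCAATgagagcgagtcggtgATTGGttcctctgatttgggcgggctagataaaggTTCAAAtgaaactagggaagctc
Mki67: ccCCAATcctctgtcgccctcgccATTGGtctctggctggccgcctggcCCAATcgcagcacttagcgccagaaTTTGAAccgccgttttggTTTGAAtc
Cenpf: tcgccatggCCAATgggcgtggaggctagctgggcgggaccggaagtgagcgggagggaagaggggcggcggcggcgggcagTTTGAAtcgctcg
Hmmr: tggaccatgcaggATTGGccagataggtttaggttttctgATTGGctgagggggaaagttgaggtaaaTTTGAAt
Kif15: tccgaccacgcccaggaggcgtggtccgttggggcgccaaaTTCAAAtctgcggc
Cdc20: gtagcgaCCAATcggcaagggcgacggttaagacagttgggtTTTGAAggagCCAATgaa

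By list, TTTGAA was in 22 of 28 promoters of the spindle and kinesin genes (78.6%), 8 of 14 of the checkpoint and anaphase-promoting complex genes (57.1%) and 8 of 20 of the kinetochore genes (40%). It was in 3 of 23 promoters of the replication fork genes (13.04%), 2 of 15 of the DNA repair genes (13.3%) and 2 of 17 of the G1/S genes (11.8%). The element was thus frequent in the genes of mitosis and near the share of all promoters in those of S phase, which describes these letters only. CCAAT was in 67.9% of spindle, 78.6% of checkpoint, 80% of kinetochore and 84.6% of mitotic cyclin and kinase promoters. It was in 65.2% of fork, 66.7% of DNA repair, 52.9% of G1/S and 42.9% of nucleotide supply promoters, all above the share of all promoters.

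Against cluster 6, summed over all libraries with 5 CPM added and tested at 50 CPM or more in either cluster, 3 of the 5 markers were over 2-fold higher in cluster 7 and none lower, where 15% of the 3673 tested genes were over 2-fold higher and 0.953% lower. Restricted to D2_resident 1, 3 of 5 were higher (15.1% of 3684 tested genes; 1.25% lower). With each of its 54 cells matched to the cluster 6 cell of the same library nearest in UMIs (54 cells, median 11054 UMIs), it was again 3 of 5 (10.7% of 3698 higher, 1.11% lower). On the log2 scale, Mki67 was 1.84 higher pooled, 1.88 within D2_resident 1 and 1.21 with matched depth. Top2a was 0.95, 1.70 and 2.15 higher, and Knl1 1.37, 1.64 and 1.68. Hmmr went from 1.18 pooled to 0.66 and then 0.02, so at matched depth in that library its level was the same in both clusters. Members that reached 50 CPM through cluster 7 alone had to be higher, so the counts over lists below describe these cells and support nothing further.

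**Figure D3:**
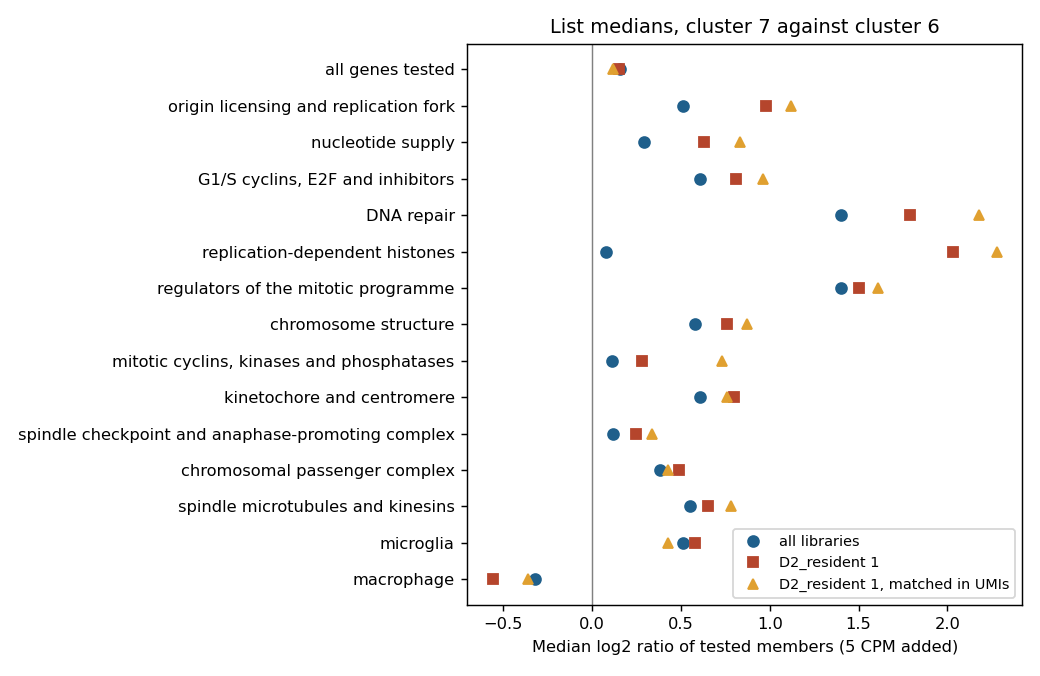
Median log2 ratio of cluster 7 over cluster 6 for the tested members of each list, over all libraries (circles), within D2_resident 1 (squares) and there with cells matched in UMIs (triangles). The histones move from 0.08 to 2.03 and 2.28, while all tested genes stay between 0.12 and 0.16.

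Counts of S-phase genes over 2-fold higher in cluster 7 differed between the 3 comparisons. Of the 24 genes of origin licensing and the replication fork, 15 were tested; 0 were over 2-fold higher pooled (median log2 ratio 0.51), 6 within D2_resident 1 (0.98) and 8 at matched depth (1.12). Mcm6, a subunit of the replicative helicase, was at 167.9 CPM in cluster 7 and 63.2 CPM in cluster 6 of D2_resident 1. Pcna, the sliding clamp, was at 325.1 and 195.6 CPM. Of the 16 G1/S genes, 5 of 11 tested were over 2-fold higher pooled, 5 of 12 within D2_resident 1 and 6 of 12 at matched depth. Within D2_resident 1 they included the cyclins Ccne1 (86.3 against 19.98 CPM) and Ccne2 (52.4 against 11.1 CPM), which with Cdk2 start replication, and E2f8 (67.8 against 13.5 CPM), a repressor of E2F targets. The nucleotide supply genes were closer, with 0 of 6 over 2-fold higher pooled and within D2_resident 1 and 2 of 6 at matched depth; Rrm2, of ribonucleotide reductase, was at 289.7 against 158 CPM.

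Among DNA repair genes, all 9 tested of 17 members were over 2-fold higher within D2_resident 1 (median 1.79) and at matched depth (2.18), and 5 of 9 were pooled (1.40). Atad2, a chromatin ATPase active in S phase, was at 332.8 CPM in cluster 7 of D2_resident 1, 57.6 in cluster 6 there and 43.1 in the matched cells. Clspn, which relays replication stress to Chek1, was at 121.7, 23.2 and 12.8 CPM. Brca2, which acts in repair of broken DNA by homologous recombination, was at 58.5, 6.51 and 6.38 CPM.

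The replication-dependent histones differed between the pooled comparison and that within D2_resident 1. Most of their transcripts end in a stem-loop without a poly(A) tail, while the 10x Genomics assay primes from poly(A) tails, so their levels count the captured part only. Pooled, 1 of 12 was over 2-fold higher (median 0.08); within D2_resident 1, 10 of 12 were (2.03), and at matched depth 10 of 12 (2.28). Hist1h1b, a linker histone, was at 711.9 CPM in the 54 cells, 168.7 in cluster 6 of that library and 806.2 in cluster 6 of all libraries. Hist1h2ap, a core histone, was at 807.4, 95.7 and 686.9 CPM. Cluster 6 of D2_resident 1 was thus lower in both histones than cluster 6 of all libraries, and cluster 7 of D2_resident 1 lay near the latter. Per cell, the list gave a median of 36.6 UMIs per 10000 in the 54 cells and 6.47 in the matched cluster 6 cells.

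Of the cyclins, kinases and phosphatases of mitosis, 2 of 12 tested were over 2-fold higher pooled, a share near the 15% of all tested genes. It was 4 of 14 within D2_resident 1 and at matched depth, and the median log2 ratio went from 0.11 to 0.28 and 0.73. Bora, the activator of Aurora A and Plk1, was at 113 CPM in cluster 7 and 13.3 in cluster 6. Ccnf, cyclin F, was at 111.9 and 51.2 CPM. Wee1, the kinase that restrains Cdk1, reached 50 CPM only within D2_resident 1, at 50.9 against 6.51 CPM. Cdk1 (349.4 and 333.5 CPM), Ccnb1 (181.1 and 180.3 CPM) and Plk1 (131.5 and 130.8 CPM) were level when pooled. At matched depth in D2_resident 1 their log2 ratios were 0.70, 0.13 and 0.43. Ccnb2 was at 171.8 and 211 CPM, with a log2 ratio of -0.90 at matched depth.

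Of the kinetochore genes 4 of 16 tested were over 2-fold higher pooled, 3 of 15 within D2_resident 1 and 6 of 15 at matched depth, among them Ndc80, which grips microtubules (163.8 against 66.2 CPM). Of the checkpoint and anaphase-promoting complex genes 1 of 10 was higher in each of the 3 comparisons, under the share of all tested genes. It was Fbxo5, the inhibitor Emi1 (169.5 against 63.0 CPM pooled), whereas Cdc20 (151.1 and 149.3 CPM), Ube2c (608.9 and 659.2 CPM) and Ube2s (628.5 and 611.9 CPM), which drive that complex, were level when pooled. In the chromosomal passenger complex Incenp was over 2-fold higher (296.4 against 140.1 CPM) and Birc5 level (539.7 and 548.7 CPM). Of the spindle genes 9 of 25 tested were higher pooled and within D2_resident 1 and 10 of 25 at matched depth: Kif15, a spindle kinesin (211 against 43.2 CPM), Cit, the midbody kinase (182.2 against 29.7 CPM), and Aspm, a spindle pole protein (114.2 against 30.9 CPM), had the highest ratios. Stmn1, Tubb5 and Tuba1b, abundant microtubule proteins, were at 1320, 2064 and 1338 CPM in cluster 7 and at 1305, 2169 and 1872 CPM in cluster 6.

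Of 4 tested regulators, 3 were over 2-fold higher: Lin9 (93.4 against 26.6 CPM) and Lin54 (50.7 against 16.1 CPM), subunits of the MuvB complex that binds the CHR, and Rbl1, the p107 pocket protein (83.0 against 28.2 CPM). The fourth, E2f4, was at 58.8 against 67.2 CPM. Of 23 tested chromosome structure genes 4 were over 2-fold higher pooled, a share near that of all tested genes, and 8 within D2_resident 1. The condensin II subunits Ncapd3 (137.2 against 36.7 CPM) and Ncapg2 (101.5 against 23.8 CPM) had, with Mki67, the highest ratios.

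The 12 genes with the highest ratios to cluster 6 by the naming rule began with the histones Hist1h3d (3.53 on the log2 scale) and Hist1h2ac (3.12), then Hjurp (3.04), the chaperone that deposits the centromere histone Cenpa. Hjurp was at 298.7 CPM against 31.8, and was found in 52 of the 54 cells of D2_resident 1 (329.7 CPM), in 5 of 6 of D3_infiltrating 1 (172.8 CPM) and not in the 1 cell of D2_mixed 1. Rbm4b, Adamts1, Bora, Gtpbp2, AC149090.1, Tanc2, Bcl2, Parvb and Ttc14 followed. Bcl2, which blocks apoptosis, was at 98.0 against 12.3 CPM. Parvb rested on the libraries other than D2_resident 1, with 525.8 CPM in the 7 cells of 4 libraries against 13.9 CPM in D2_resident 1.

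The 12 lowest began with the haemoglobins Hbb-bs (0 against 200.3 CPM) and Hba-a1 (3.46 against 159.9 CPM), which were low in cluster 6 of D2_resident 1 too (16.7 and 6.97 CPM). Fabp5, a fatty acid carrier, was at 13.8 CPM (7.15 to 24.2) in cluster 7 and 234.6 in cluster 6. Within D2_resident 1 it was 7.70 against 153.3 CPM, and 59.0 CPM in the matched cells. In D10_mixed 1, 7 UMIs in 2 cells gave 156.9 CPM against 463.1 CPM in cluster 6 there. Hmox1, heme oxygenase, was at 72.7 against 465.4 CPM, Ftl1, the ferritin light chain, at 3664 against 9540 CPM, and Spp1, osteopontin, at 6426 against 16609 CPM. Ccl5, Wfdc17, Aprt, Igf1, Anxa2 and Hypk made up the rest. For Spp1 the log2 ratio was -1.37 pooled, -0.64 within D2_resident 1 and -0.36 at matched depth.

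Transcript length and ribosomal content moved with these ratios. Longer transcripts (longest GENCODE M21 model; 3665 of 3673 tested genes matched) had higher ratios: the median log2 ratio was -0.44 for the 291 genes under 1000 bases, 0.16 for the 1406 genes of 2000 to 4000 bases and 1.10 for the 202 genes of 8000 bases or more. At matched depth in D2_resident 1 these medians were -0.38, 0.13 and 0.73. Mki67, at 10061 bases, and Cit, at 9514, lie among the long transcripts. Ribosomal protein UMIs were lower, a median of 1347 per 10000 in the 54 cells against 1687 in the matched cluster 6 cells. Both checks were chosen after the values were seen, and their part in the gene ratios was not tested.

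Pooled over libraries, cluster 7 was high in microglia markers and cluster 10 low, but these clusters came largely from different libraries. D2_resident 1 held 54 cells of cluster 7 and 1 of cluster 10, and D3_mixed 3 held 0 and 107. In D3_infiltrating 1, with 6 and 14 cells, the microglia marker medians were close, at 16.8 and 12.96 per 10000 UMIs. Library, time point and sort cannot be told apart from cluster in the pooled ratios to cluster 10. Against cluster 6, 1 of 8 tested microglia markers was over 2-fold higher and none lower (median 0.51). That is near the shares of all tested genes, 15% higher and 0.953% lower. Against cluster 10, 8 of the 8 tested microglia markers were over 2-fold higher (19.7% of 3803 tested genes were; 6.18% were over 2-fold lower). Sparc, a matrix protein of microglia, was at 1448 CPM in cluster 7, 1032 in cluster 6 and 3.41 in cluster 10. Gpr34, a lysophosphatidylserine receptor, was at 644.7, 452.3 and 0.310 CPM, and P2ry12, the purine receptor of resting microglia, at 268.7, 186.3 and 10.2 CPM. Csf1r, the receptor for the microglial survival factors, was at 1375, 849.3 and 112.3 CPM, and Tgfbr1, a transforming growth factor receptor, at 355.2, 105.9 and 56.8 CPM. Other genes among the 12 highest against cluster 10 were Cd81, Plxdc2, Olfml3, Fcrls, Ptgs1, Nes, Ch25h, St3gal6, Cadm1 and Gpr84. In cluster 4 of D2_resident 1, whose cells had a median of 12.98 mitosis UMIs per 10000 against 175 in cluster 7 there, P2ry12 was at 482.9 CPM and Sparc at 2127 CPM, against 315.9 and 1666 CPM in cluster 7 of that library.

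Granule progenitor markers were near 0 in cluster 7. The 5 of 9 that were tested reached 50 CPM in cluster 10 alone and so had to be lower, and 6 of the 8 microglia markers reached it in cluster 7 alone and had to be higher. Elane, neutrophil elastase, was at 0 UMIs in cluster 7 and 590.2 CPM in cluster 10, and Mpo, myeloperoxidase, at 0 UMIs and 414.6 CPM. A minority of cluster 10 cells carried these levels: 143 of its 182 cells held no UMI of the 9 markers. The lowest genes by the rule included Plac8, S100a6, Napsa, Gpnmb, Hp, F13a1, S100a11, S100a10, Acp5, Wfdc17 and Ifitm1, with log2 ratios of -7.20 to -4.49. The cycle lists differed less: fork genes had a median of -0.06 with 0 of 16 over 2-fold either way, and spindle genes 0.71 with 6 of 25 higher, a share near the 19.7% of all tested genes. Histones had a median of -0.63, with 1 of 12 higher and 2 lower.

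The 6 cells of D3_infiltrating 1 went against the label of the cluster in other respects. Ccr2, the chemokine receptor by which monocytes leave the bone marrow, was present in all 6, with 6, 18, 15, 8, 26 and 9 UMIs, together 885.6 CPM. It was at 0 UMIs in the 54 cells of D2_resident 1, which allows a share of cells with a UMI of up to 5.56%, and in the 7 cells of the other 4 libraries. Ccr2 gave 82 of the 87 UMIs of the 8 monocyte markers in the 6 cells, Ly6c2 gave 5, and the other 6 markers were at 0. Major histocompatibility complex class II genes (H2-Aa, H2-Ab1, H2-Eb1 and the invariant chain Cd74), which present antigen, gave 270, 520 and 728 UMIs in 3 of the 6 cells and 0 in the other 3. In the 54 cells of D2_resident 1 these genes summed to at most 4 UMIs per cell, and in the 7 others to at most 1. Ccr2 and the class II genes were picked after their values were seen.

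The same 6 cells were low in microglia markers. The 9 markers gave 16.1, 31.2, 17.3, 55.9, 10.1 and 16.2 UMIs per 10000 in the 6 cells, against 55.6 to 315 (median 157) in the 54 cells of D2_resident 1 and 65.0 to 165 in the 7 others. The cell at 55.9 alone reached the range of D2_resident 1. Sparc was at 0 UMIs in all 6 cells and Sall1, a microglial transcription factor, also at 0. Of the 9 macrophage markers, 5 were at 0 UMIs in the 6 cells, and of the 5 tested against the 54 cells 3 were over 2-fold higher and 1 lower. The higher ones were Ms4a7, Lgals3 and Vim, and the lower one was Cd36. Ms4a7, a macrophage membrane protein, was at 702 CPM in the 6 cells against 3.08 CPM in the 54 cells of D2_resident 1, and Lgals3, galectin 3, at 1166 against 74.0 CPM. Lyz2, lysozyme, which is in none of the lists and was picked after its values were seen, was at 3478 against 237.3 CPM. In this comparison 19.6% of 4595 tested genes were over 2-fold higher and 15.6% lower in the 6 cells, on sums of 92594 and 649008 UMIs.

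**Figure D4:**
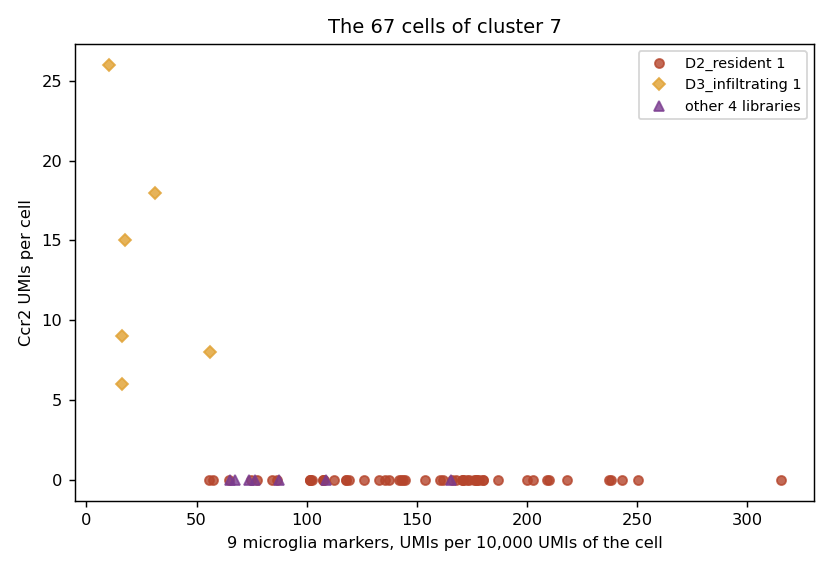
Ccr2 UMIs per cell against the summed level of 9 microglia markers for the 67 cells. The 6 cells of D3_infiltrating 1 lie at 6 to 26 Ccr2 UMIs and at most 55.9 marker UMIs per 10000, and all other cells at 0 Ccr2 UMIs.

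Other cells of D3_infiltrating 1 shared parts of these profiles. Per 10000 UMIs, the class II genes had a median of 569.9 in its 1265 cluster 15 cells and 424.4 in its 14 cluster 10 cells. The microglia markers had a median of 5.19 and 12.96. In its 921 cluster 11 cells the class II median was 0 and the microglia median 2.39. The macrophage median was 141.4 in cluster 11, against 38.1 in the 6 cells. Mitosis medians were 11.91 in cluster 15, 9.29 in cluster 11 and 181.3 in cluster 10, against 248 in the 6 cells. Ccr2 was at 888.6 CPM in cluster 15 and 680.9 CPM in cluster 10 of the library. Its 5 cluster 6 cells had 94.1 microglia marker UMIs per 10000 and no class II UMI. Only 19 of the 2917 cells of the library carried code 1. The part of free RNA or of mixed droplets in the 6 profiles was not tested; 3 of the 6 cells had 0 class II UMIs in the same library.

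In cell cycle genes, too, these 6 differed from the 54. Mitosis list UMIs (82 genes of 5 lists) were 349, 155.8, 223.7, 272.6, 120.2 and 281.5 per 10000, median 248, against 75.4 to 281 in D2_resident 1, median 175. Fork UMIs were 0.595 to 7.14 per 10000, against 2.96 to 56.8 there, median 23.4. Of the 15 tested fork genes 14 were over 2-fold lower and none higher, and of 15 tested mitotic cyclins and kinases 6 were higher and 2 lower. Ccnb2 was at 561.6 against 132.5 CPM, Cdc20 at 388.8 against 129.4 CPM and Mcm6 at 0 UMIs against 167.9 CPM. Histone UMIs spread widely, from 5.76 to 214 per 10000 in the 6 cells.

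Among the 54 cells of D2_resident 1, fork and mitosis genes ran in opposite directions. Pearson's r between the levels was -0.70 and Spearman's rho -0.74 over the 54 cells, which share a library and whose levels share each cell's total as denominator; no test was made. The cell with the highest fork level, 56.8 per 10000, had a mitosis level of 121.9. Against the medians of cluster 6 in that library, 39 of the 54 cells were higher in fork genes, 33 higher in mitosis genes, 18 higher in both and 0 in neither. By list, nucleotide supply (r 0.77) and DNA repair (0.71) followed the fork genes, the kinetochore (0.86), checkpoint (0.86) and spindle (0.89) lists the total of mitosis lists that contains them. Histones followed neither closely (-0.23 with fork, 0.37 with mitosis), and 52 of the 54 cells had more histone UMIs per 10000 than the cluster 6 median. Between log UMIs and the mitosis level r was -0.09. The cluster spanned cells rich in S-phase genes and cells rich in mitosis genes, although its marker genes are those of mitosis.

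**Figure D5:**
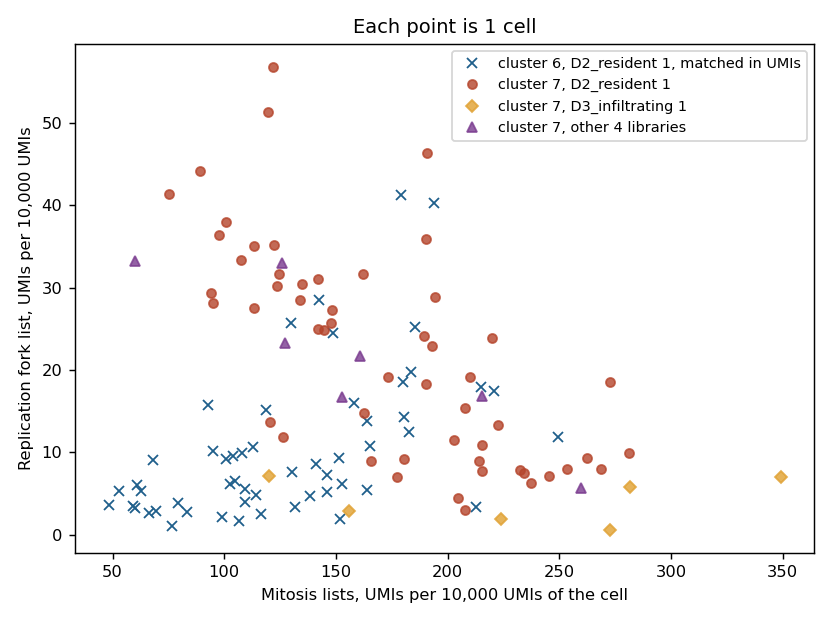
Replication fork UMIs against mitosis UMIs, each per 10000 UMIs of a cell, for cluster 7 by library and for the 54 depth-matched cluster 6 cells of D2_resident 1. The cluster 7 cells of that library run from high fork levels at the left to low ones at the right, and the 6 cells of D3_infiltrating 1 lie at the bottom, at most 7.14.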

How the data were processed

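Sorted spinal cord myeloid cells were profiled with the 10x Genomics 3′ assay, per the labels' protocols. For each library the authors deposited a matrix of UMI counts, not normalised, with genes against cells, and for the series an annotation table with cluster, cell type code, total count and percent of mitochondrial counts per cell. The submitters' processing notes name Cell Ranger 3.1.0 and the builds GRCm38 and mm10; the authors' cell filters are not given in the sources used here. Column sums of the 22439 genes equalled the deposited totals for all 30958 cells.

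Counts were summed over cells and expressed as CPM. Log2 ratios used 5 CPM added and genes at 50 CPM or more in either cluster. Equal depth was reached by thinning to 3000 UMIs without replacement. Intervals are exact binomial for shares and exact Poisson for counts, at 95%, and a count of 0 was given a limit of 3 counts; they cover counting error only. Python 3.11.15, numpy 2.4.6, scipy 1.17.1 and pandas 2.3.3 were used. The ratio code was tested on simulated data. The thinning code was checked on the cluster 7 cells for the total reached and for counts no higher than before. Named genes are members of the lists and, for each comparison, the 12 highest and 12 lowest ratios with the same direction in every library with at least 3 cluster 7 cells and 10 cells of the other cluster, which left 1 library each. The cluster, its markers and all lists were chosen with earlier results of these data known. A test of D10 against D3 was planned for libraries with at least 3 cluster 7 cells; D10 had 0 and D3 had 1, so it was not run. The 6 long noncoding RNAs listed were not analysed here. Promoters are RefSeq's, without an entry for Bora or for the listed histones. A few genes that the rule names are not reported here.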

Additional observations from a re-analysis of the deposited data

Results flagged for a closer look

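At 3 time points, 1 library's share of cluster 7 lay far from the rest. At D2, D2_resident 1 had 3.16%, the next of the 4 libraries 0.398% and the lowest 0, a gap of 0.874 of the range. At D3, D3_resident 1 had 0.629% against 0.206% in the next of 7 libraries (0.673 of the range), on 1 cell of 159. At D10, D10_mixed 1 had 0.165%, on 2 cells of 1213, and the other 4 libraries had 0. The libraries of a time point differ in sort and strain. For values spread normally, chance would mark about 1 in 20 groups in this way. Most of these shares are 0, so that rate does not hold here, and at D10 a single library above 0 is marked whatever its count.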

How the results depend on the processing

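The share of cluster 7 (0.216% of all cells) was 3.80% of the cells of clusters 6, 7 and 10 and 22.6% of the cells of clusters 6 and 7 above the shallowest cluster 7 cell. The ratio of median UMIs to cluster 6 was 7.49 without D2_resident 1 and 3.29 within it; that to cluster 10 was 0.966 in all libraries and turned to 1.19 without D2_resident 1. Genes over 2-fold higher than cluster 6 numbered 551, and 829 without D2_resident 1, 336 with 20 CPM added, 1113 with a minimum of 20 CPM and 1426 with none. Genes over 2-fold lower numbered 35, and 389 as a mean over libraries, 110 without D2_resident 1, 19 with 20 CPM added, 56 with a minimum of 20 CPM and 80 with none. Against cluster 10, 235 were lower, and 475 as a mean over libraries; there Top2a (-0.17), Cenpf (-0.50) and Hmmr (-0.03) turned. That mean gives libraries with few cells the same weight as D2_resident 1. The 5 markers kept their sign in 82 of 85 ratios, from 0.02 to 2.22 against cluster 6. The 85 include settings of the minimum level and of the cell type code, which could not change a marker's ratio. Detection moved in 25 of 40 alternatives of depth or library. No paired analysis was possible because D10 and D3, the time points to be compared, had 0 and 1 libraries with at least 3 cluster 7 cells and so shared no replicate number. Clusters 6 and 7 of the same library were set side by side without a test. The alternatives of the D10 against D3 test (other scaling, DESeq2, no filter, at least 5 cells, leaving libraries out, replicate block) were not run either. The 13 cells outside D2_resident 1 were deep (median 16618 UMIs) but few, spread over 5 libraries.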
